A study of Mus musculus with 16 samples.

Results

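Growth and cytoskeleton genes of immature olfactory sensory neurons were followed here, 10 in all: Gap43, Gng8, Dpysl3, Dpysl5, Tex15, Marcksl1, Stmn1, Stmn2, Dcx and Crmp1. They were taken by gene symbol from the platform annotation, and each was measured by 1 probe set, out of 22206 probe sets tested. RNA of sorted mouse olfactory mucosa cells was hybridised to Clariom S arrays, which give a log2 value per gene. The C57BL/6 mice, of both sexes and 7 to 12 weeks old, all carried S100a5-tauGFP, named for a green fluorescent reporter tied to S100a5, a gene that mature olfactory neurons transcribe when they are active. They sat alone in clean air chambers for 40 h and from 26 h on received either undecanal, an aldehyde odorant, or filtered air as vehicle, for 10 s every 20 min. Cells of 3 mice made a pool, each pool was sorted into 2 fractions by GFP, and 4 pools per agent gave 16 arrays in 4 groups: vehicle titled GFP-, vehicle titled GFP+, undecanal titled GFP- and undecanal titled GFP+.

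Olfactory sensory neurons are renewed throughout life from basal stem cells. A newly made neuron first extends an axon to the olfactory bulb and expresses growth cone and microtubule proteins, and later, once it carries cilia and responds to odorants, it expresses olfactory marker protein (Omp) and lowers Gap43. The genes described here encode a growth cone phosphoprotein (Gap43), a G protein gamma subunit known from immature olfactory neurons (Gng8), collapsin response mediator proteins that act in semaphorin signalling and axon growth (Dpysl3, Dpysl5, Crmp1), stathmins that bind tubulin and destabilise microtubules (Stmn1, Stmn2), doublecortin, which stabilises microtubules (Dcx), and a membrane-bound actin regulator (Marcksl1). Tex15 is best known for its role in male meiosis.

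The labels contradict themselves on the sort: a sample whose title says GFP- has GFP+ among its characteristics, and the reverse, for every array. S100a5, which drives the reporter, was lower in the arrays titled GFP+, by 0.91 on the log2 scale in vehicle pools, from 16.58 to 15.66 (difference -0.91, SE 0.167, limma adjusted p = 0.000715), and by 0.97 in undecanal pools (difference -0.97, SE 0.167, limma adjusted p = 0.000394), with a negative difference in 8 of 8 pools. S100a5 therefore goes with the characteristics and against the titles. The fractions are named by title below. If the characteristics hold, each difference between fractions and each interaction changes sign. Mature neuron mRNA was abundant in all 4 groups, with Omp between 18.71 and 18.95 on the 16 arrays. The number of arrays limits the precision, and p-values measure the spread between pools of 3 mice.

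Most of the 10 genes were higher in the arrays titled GFP+, the fraction with less S100a5. In vehicle pools 8 of 10 were called higher and 0 lower by limma at an adjusted p under 0.05, where 8.82% of all probe sets were called higher and 5.12% lower. In undecanal pools 6 of 10 were called higher and 0 lower, against 8.83% and 4.36% of all probe sets. The split of all called probe sets depended on the scaling. In vehicle pools 63.3% of those called were higher with the deposited values and 50.6% after quantile normalization. The share was 12.3% with each array centred on its median and 87.7% with each centred on mature neuron markers. In that order, 8, 8, 6 and 9 of the 10 genes were called higher and 0, 0, 1 and 0 lower. Of all 22206 probe sets, 1959, 1876, 1570 and 3173 were called higher there. Called lower were 1138, 1830, 11231 and 443. Taken as titled GFP+ minus titled GFP-, the 10 genes had a median log2 difference of 1.77 in vehicle pools and 1.69 in undecanal pools, while the median over all probe sets was -0.11 in both. In vehicle pools 9 of 10 genes had all 4 arrays titled GFP+ above all 4 titled GFP-, which held for 9.83% of all probe sets, and in undecanal pools 7 of 10 did, against 9.43%. The 10 genes did not behave alike: Gng8, Dpysl3 and Tex15 differed by over 3 log2 units, and Crmp1 and Dcx did not pass the test.

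**Figure D1:**
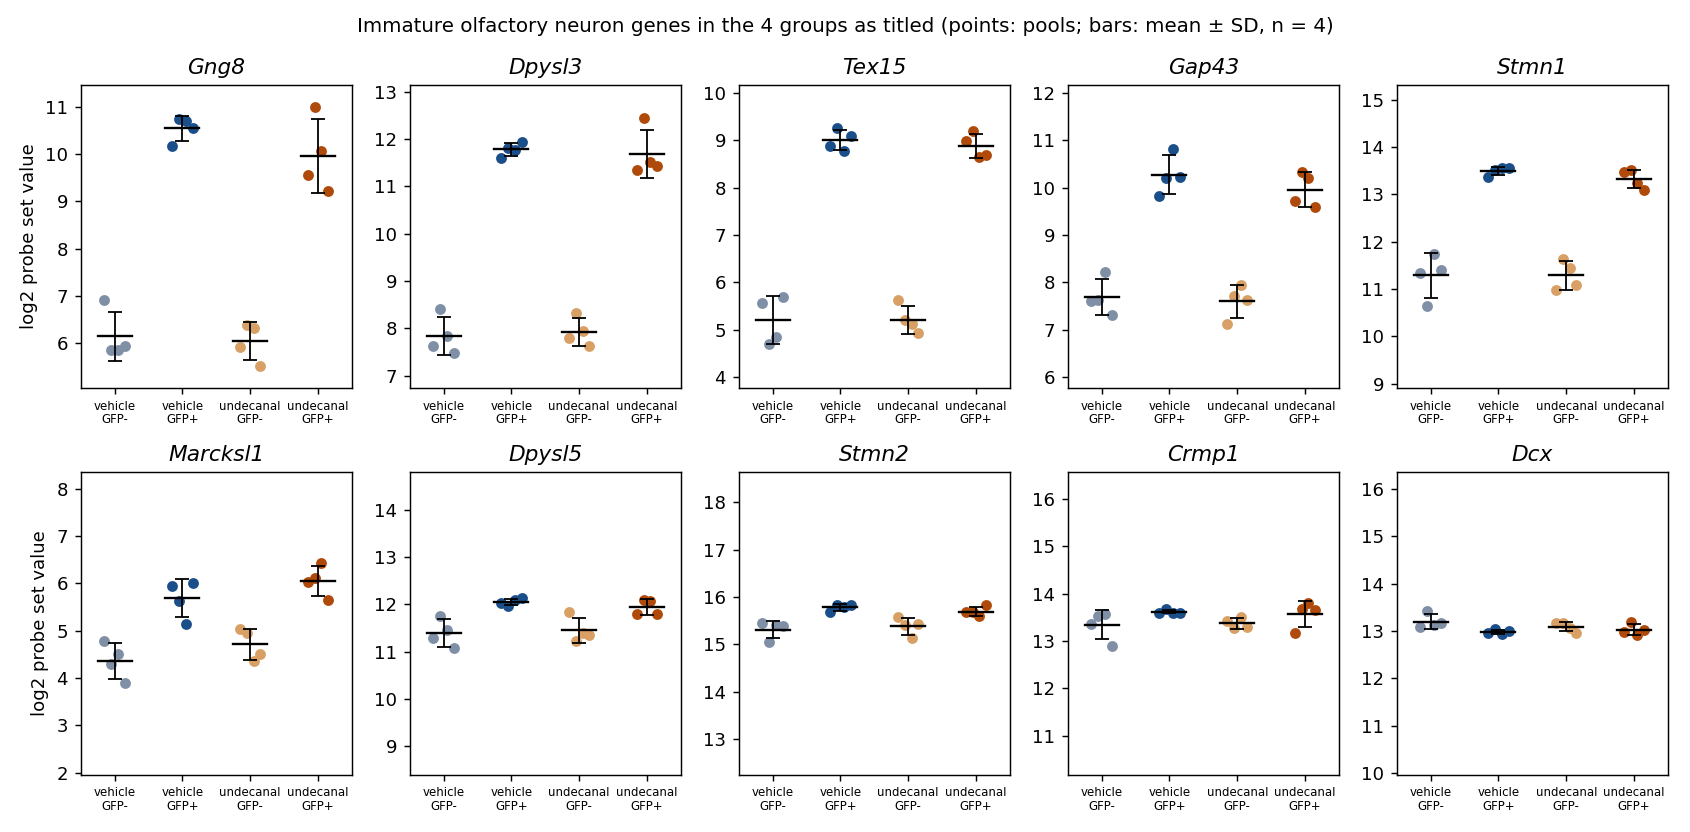
Log2 probe set value (y axis) of each of the 10 genes in the 4 groups as titled (x axis); points are pools, black bars the mean and SD of 4 pools, and every panel spans the same number of log2 units. Gng8, Dpysl3, Tex15, Gap43 and Stmn1 separate the fractions widely, while Crmp1 and Dcx lie at nearly the same level in all 4 groups.

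Gng8 showed the largest measured difference. Its log2 values in vehicle pools 1 to 4 were 6.92, 5.85, 5.87 and 5.94 in arrays titled GFP- and 10.16, 10.74, 10.70 and 10.54 in arrays titled GFP+. In undecanal pools they were 5.93, 6.39, 6.33 and 5.53 in arrays titled GFP- and 9.55, 10.99, 10.06 and 9.22 in arrays titled GFP+. All arrays titled GFP+ lay above all titled GFP-, and the undecanal arrays titled GFP+ were the most spread group (SD 0.773, n = 4). The difference was 4.39 in vehicle pools (SE 0.326, limma adjusted p = 1.53e-08), a 21-fold difference, and 3.91 in undecanal pools (SE 0.326, limma adjusted p = 7.03e-08). With a background level taken from negative control rows, a log2 value of 8.70, the arrays titled GFP- of Gng8 are below background and the vehicle difference is only at least 3.56-fold. By the same level Dpysl3 is at least 8.44-fold higher, so the order of these genes depends on that choice.

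Among the collapsin response mediator genes, Dpysl3 separated the fractions most. Dpysl3 read 7.63, 8.41, 7.83 and 7.49 in vehicle arrays titled GFP- and 11.60, 11.82, 11.76 and 11.93 in those titled GFP+, and with undecanal 7.80, 8.33, 7.94 and 7.63 against 11.35, 12.45, 11.52 and 11.44. The groups did not overlap, and pool 2 was the highest in 3 of the 4 groups. The log2 difference was 3.94 with vehicle (SE 0.239, limma adjusted p = 1.15e-09) and 3.76 with undecanal (SE 0.239, limma adjusted p = 2.21e-09).

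Dpysl5 differed far less. Its values were 11.28, 11.76, 11.46 and 11.07 in vehicle arrays titled GFP- and 12.03, 11.97, 12.09 and 12.13 in those titled GFP+, a difference of 0.66 (SE 0.165, limma adjusted p = 0.00943). With undecanal they were 11.83, 11.22, 11.39 and 11.36 against 11.79, 12.08, 12.07 and 11.80. There pool 1 titled GFP- lay within the range of the arrays titled GFP+, and the difference of 0.49 (SE 0.165) did not pass (limma adjusted p = 0.0616). The Dpysl5 calls depended on the fit: with the pool as a replicate block it passed in undecanal pools too (limma adjusted p = 0.0402), it passed there under 7 other alternatives as well, among them leaving out undecanal pool 1, and in vehicle pools it was lost with median centring and without vehicle pool 1 or 4 or both pools numbered 3 or 4. Over all alternatives its limma adjusted p ran from 0.000395 to 0.11 in vehicle pools and from 0.00417 to 0.481 in undecanal pools.

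Crmp1 belongs to the same family. It ranged from 12.90 to 13.57 in vehicle arrays titled GFP- and from 13.60 to 13.67 in those titled GFP+. The groups thus did not overlap but lay close together. In undecanal pools the ranges were 13.27 to 13.51 and 13.16 to 13.80. Its difference was 0.28 with vehicle (SE 0.165, 95% interval -0.07 to 0.63, limma adjusted p = 0.311) and 0.20 with undecanal (SE 0.165, interval -0.14 to 0.55, limma adjusted p = 0.502). Within pools, the fraction difference of Dpysl3 exceeded that of Dpysl5 by 3.28 ± 0.195 (SD, n = 8 pools) and that of Crmp1 by 3.61 ± 0.243, and Dpysl5 exceeded Crmp1 by 0.33 ± 0.196, each in 8 of 8 pools. Related members of this family were thus unequally distributed between the fractions.

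The stathmins were unequal too. Stmn1 had 11.35, 10.64, 11.75 and 11.40 in vehicle arrays titled GFP- and 13.37, 13.51, 13.56 and 13.56 in those titled GFP+, and with undecanal 10.98, 11.63, 11.45 and 11.08 against 13.47, 13.51, 13.24 and 13.10. No array titled GFP- came near the arrays titled GFP+. The difference was 2.21 with vehicle (SE 0.205, limma adjusted p = 2.57e-07) and 2.05 with undecanal (SE 0.205, limma adjusted p = 7.65e-07). Stmn1 is also known from dividing cells, whose genes are given below.

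Stmn2, a stathmin of growing axons, was 15.44, 15.04, 15.40 and 15.38 in vehicle arrays titled GFP- and 15.68, 15.82, 15.79 and 15.83 in those titled GFP+. With undecanal it was 15.57, 15.40, 15.13 and 15.43 against 15.69, 15.67, 15.59 and 15.82. The arrays titled GFP+ were above those titled GFP- for both agents, but by little. The difference of 0.47 in vehicle pools passed (SE 0.134, limma adjusted p = 0.024), and that of 0.31 in undecanal pools did not (SE 0.134, limma adjusted p = 0.156). It passed in undecanal pools with mature neuron centring (0.55, limma adjusted p = 0.00624) and with an intensity trend and robust prior (limma adjusted p = 0.049), and was -0.05 with median centring (limma adjusted p = 0.764). The vehicle call of Stmn2 was lost with median centring, in a fit of the 2 vehicle groups alone, without vehicle pool 2, 3 or 4, and without both pools of any number, with limma adjusted p up to 0.461. Within pools the fraction difference of Stmn1 exceeded that of Stmn2 by 1.74 ± 0.343 (SD, n = 8), from 1.33 to 2.36.

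Gap43 was 7.61, 7.63, 8.21 and 7.32 in vehicle arrays titled GFP- and 9.82, 10.21, 10.82 and 10.22 in those titled GFP+. With undecanal it was 7.12, 7.72, 7.94 and 7.62 against 9.71, 10.33, 10.21 and 9.59. The fractions were apart by more than the spread of either. The difference was 2.57 in vehicle pools (SE 0.244, limma adjusted p = 3.5e-07), a 5.95-fold difference, and 2.36 in undecanal pools (SE 0.244, limma adjusted p = 1.12e-06). Against the level of the negative control rows the vehicle difference of Gap43 is at least 2.96-fold.

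Tex15 lay close to a background level in arrays titled GFP-, from 4.69 to 5.70 with vehicle and from 4.92 to 5.62 with undecanal. That level, a log2 value of 4.80, is the 95th percentile of the group means of 358 probe sets for vomeronasal and bitter taste receptors, and 1 array lay under it. Arrays titled GFP+ were clearly above, from 8.78 to 9.25 and from 8.65 to 9.19. The log2 difference was 3.80 with vehicle (SE 0.224, limma adjusted p = 7.97e-10) and 3.67 with undecanal (SE 0.224, limma adjusted p = 1.34e-09). Against the level of the negative control rows the vehicle difference of Tex15 is at least 1.23-fold.

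Marcksl1 lay under that level in 6 of the 8 arrays titled GFP-. It measured 4.79, 4.29, 4.51 and 3.89 in vehicle arrays titled GFP-, all below background, and 5.95, 5.63, 5.15 and 6.01 in those titled GFP+. With undecanal it measured 5.03, 4.95, 4.36 and 4.51 against 6.04, 6.11, 6.43 and 5.64. Both group means titled GFP-, 4.37 and 4.71, lay under the background level. Set against it, array by array, Marcksl1 was at least 1.85-fold higher in arrays titled GFP+ with vehicle (limma adjusted p = 0.000554) and at least 2.23-fold higher with undecanal (limma adjusted p = 0.00047). The measured differences were 1.32 and 1.34 on the log2 scale (SE 0.236). Against the level of the negative control rows, a log2 value of 8.70, every group mean of Marcksl1 lies below background.

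Dcx, widely used as a marker of young neurons, did not follow the other genes. Its values were 13.09, 13.42, 13.13 and 13.16 in vehicle arrays titled GFP- and 12.96, 13.04, 12.93 and 12.99 in those titled GFP+. With undecanal they were 13.17, 13.16, 13.07 and 12.96 against 12.98, 13.19, 12.91 and 13.03. The vehicle arrays titled GFP+ all lay just below those titled GFP-, and the undecanal groups overlapped. The difference was -0.22 with vehicle (SE 0.122, 95% interval -0.48 to 0.04, limma adjusted p = 0.275) and -0.06 with undecanal (SE 0.122, interval -0.32 to 0.20, limma adjusted p = 0.813). Under median centring of the arrays Dcx passed as lower in both, by values of -0.58 and -0.42 (limma adjusted p = 0.002 and 0.0122). That centring called 11231 of all 22206 probe sets lower in vehicle pools and 11129 in undecanal pools. With arrays centred on the mature neuron markers the Dcx values were 0.05 and 0.18, so its direction depended on the scaling.

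**Figure D2:**
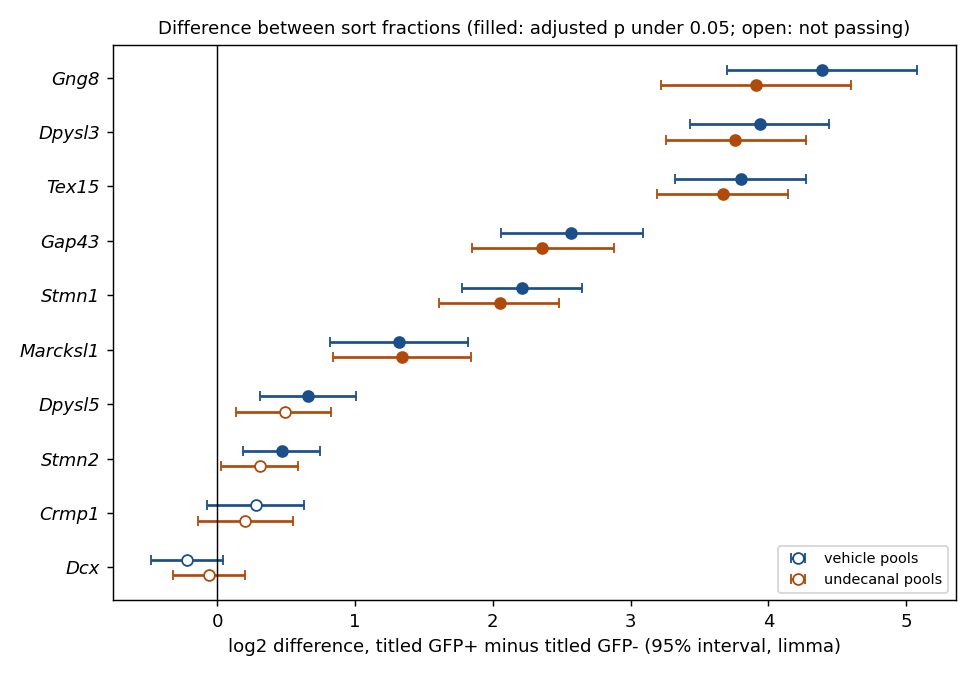
Difference between fractions, titled GFP+ minus titled GFP-, on the log2 scale (x axis) for each gene (y axis), with limma 95% intervals, in vehicle and undecanal pools; filled points passed at an adjusted p under 0.05. The order runs from Gng8 (4.39 and 3.91) to Dcx (-0.22 and -0.06), and the intervals of the agents overlap for every gene.

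Each of the 8 pools gave its own difference. Gap43, Gng8, Dpysl3, Tex15, Marcksl1, Stmn1 and Stmn2 had a positive difference, titled GFP+ over titled GFP-, in 8 of 8 pools, and Dpysl5 and Crmp1 in 7. Dcx had a positive difference in 2 pools. The range over pools was 3.24 to 4.89 for Gng8, 3.41 to 4.44 for Dpysl3, 3.30 to 4.55 for Tex15, 1.97 to 2.90 for Gap43 and 1.79 to 2.87 for Stmn1. Ordered by the measured mean over pools, Gng8 did not exceed Dpysl3 beyond the spread between pools (0.30 ± 0.663, SD, n = 8), nor did Dpysl3 exceed Tex15 (0.12 ± 0.627). Tex15 exceeded Gap43 by 1.26 ± 0.484. Gap43 exceeded Stmn1 by 0.34 ± 0.408, which is within the spread. The place of Marcksl1 in the order is not given, since its difference has only a lower bound at the background level of 4.80. At the level of the negative control rows Gng8, Dpysl3, Tex15 and Gap43 have only lower bounds too. There Tex15 is at least 1.23-fold and Gap43 at least 2.96-fold higher in vehicle pools, so their order depends on the level. Dpysl5 over Stmn2 (0.18 ± 0.408) and Stmn2 over Crmp1 (0.15 ± 0.296) were within the spread, and Crmp1 exceeded Dcx by 0.38 ± 0.267.

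Probe sets were also grouped by their mean signal over the 16 arrays, a step added after the values were seen. Among the 809 probe sets with a mean log2 value of 14 or above, where Stmn2 lies, the 5th to 95th percentile of differences in vehicle pools ran from -0.40 to 0.47. Among the 650 with a mean from 13 to 14, which include Dcx and Crmp1, they ran from -0.43 to 0.52. Stmn1 has a mean from 12 to 13, where 1068 probe sets gave -0.53 to 0.53, and its 2.21 lay far outside. Of the 3036 probe sets with a mean from 8 to 10, which include Gap43, Gng8 and Dpysl3, the range was -0.96 to 1.79. Of the 5171 probe sets with a mean from 4.80 to 8, which include Tex15 and Marcksl1, the range was -0.72 to 3.06. In that group 19.3% were called higher, the 1.32 of Marcksl1 lay inside the range and the 3.80 of Tex15 outside. Among the 2879 with a mean from 10 to 12, it ran from -0.73 to 0.64, close to the 0.66 of Dpysl5. The part of signal level in the differences of the 10 genes was not tested.

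RefSeq promoter sequence (GRCm38.p6) could be matched for 5 of the 10 genes, with 7 start sites: Gng8, Marcksl1, Dpysl5, Crmp1 and Dcx. The 250 bases before the start are printed for Gng8, which differed most between fractions, for Dcx, which did not pass, and for Dpysl5, which lay between them and held a match. The Gng8 window is chr7:16891536-16891785 on the plus strand, that of Dcx chrX:143933220-143933469 on the minus strand and that of Dpysl5 chr5:30711314-30711563 on the plus strand, each given 5′ to 3′ with matches to the motifs named after them in capitals (overlapping matches run together).
Gng8: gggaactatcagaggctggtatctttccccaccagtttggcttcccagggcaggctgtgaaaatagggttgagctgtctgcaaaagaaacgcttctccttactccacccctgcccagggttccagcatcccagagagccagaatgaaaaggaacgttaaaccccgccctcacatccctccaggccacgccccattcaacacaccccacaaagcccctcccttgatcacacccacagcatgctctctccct
Dcx: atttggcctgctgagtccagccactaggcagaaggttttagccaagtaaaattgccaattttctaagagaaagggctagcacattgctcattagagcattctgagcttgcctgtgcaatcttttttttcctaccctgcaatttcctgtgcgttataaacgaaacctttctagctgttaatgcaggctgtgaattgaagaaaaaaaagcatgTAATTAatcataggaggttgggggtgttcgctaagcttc
Dpysl5: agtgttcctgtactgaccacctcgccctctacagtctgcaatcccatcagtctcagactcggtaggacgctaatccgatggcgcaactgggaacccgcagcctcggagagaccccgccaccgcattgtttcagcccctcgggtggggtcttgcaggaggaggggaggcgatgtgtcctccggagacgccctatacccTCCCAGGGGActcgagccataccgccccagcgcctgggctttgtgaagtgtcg

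Both strands were searched for TCCCNNGGG (known from Ebf factors, which act in olfactory neurons), TAATTA (LIM homeodomain factors such as Lhx2), CAGATG and CAGCTG (E-boxes of neurogenic factors) and TTCAGCACC (part of the element bound by Rest). The Dpysl5 window held TCCCNNGGG at -53 and, overlapping it on the other strand, at -52 from the start, and 5.6% of all 32851 promoter windows of that length hold this motif. Dcx held TAATTA at -39 from the printed start, a site that also lies at -134 in the overlapping window of its other listed start, against 4.84% of all windows. The windows of Gng8, Marcksl1 and Crmp1 held none of the 5 motifs, and none of the 7 windows held CAGATG (14.4% of all windows), the motif CAGCTG (13%) or the motif TTCAGCACC (0.301%). The GC content was 56% for Gng8, 41.6% for the printed Dcx window and 62.8% for Dpysl5, where the median of all windows was 52.4%.

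None of the 10 genes passed the test for an effect of undecanal. In arrays titled GFP+, 0 of 10 passed in limma, as 0.0045% of all probe sets did, and 0 of 10 had an unadjusted p under 0.05, against 2.72% of all probe sets. Nor did any of the 10 separate the agents without overlap there, which 1.87% of probe sets did. In arrays titled GFP-, 0 of 10 passed, as did 0% of all probe sets, 0 of 10 had an unadjusted p under 0.05 against 4.12%, and 0 of 10 were without overlap against 2.2%. The median difference of the 10 genes, undecanal minus vehicle, was -0.11 in arrays titled GFP+ and 0.02 in arrays titled GFP-, beside 0.01 and 0.0043 over all probe sets.

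Gng8 had the largest value of these, -0.58 in arrays titled GFP+ (SE 0.326, 95% interval -1.27 to 0.11, limma adjusted p = 0.999), from a mean of 10.54 with vehicle to 9.96 with undecanal. Its undecanal arrays reached both above and below the vehicle arrays. Gap43 gave -0.31 there (SE 0.244, interval -0.82 to 0.21) and Marcksl1 0.37 (SE 0.236, interval -0.13 to 0.86). The narrowest limits were those of Dcx, from -0.21 to 0.30 in arrays titled GFP+ and from -0.37 to 0.14 in arrays titled GFP-. Over the 10 genes the 95% intervals reached from -1.27 to 0.86 in arrays titled GFP+ and from -0.79 to 0.84 in arrays titled GFP-, so larger effects than these lie outside the intervals. In arrays titled GFP- the largest value was that of Marcksl1, 0.34 (SE 0.236, interval -0.15 to 0.84, limma adjusted p = 1), at levels below background.

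**Figure D3:**
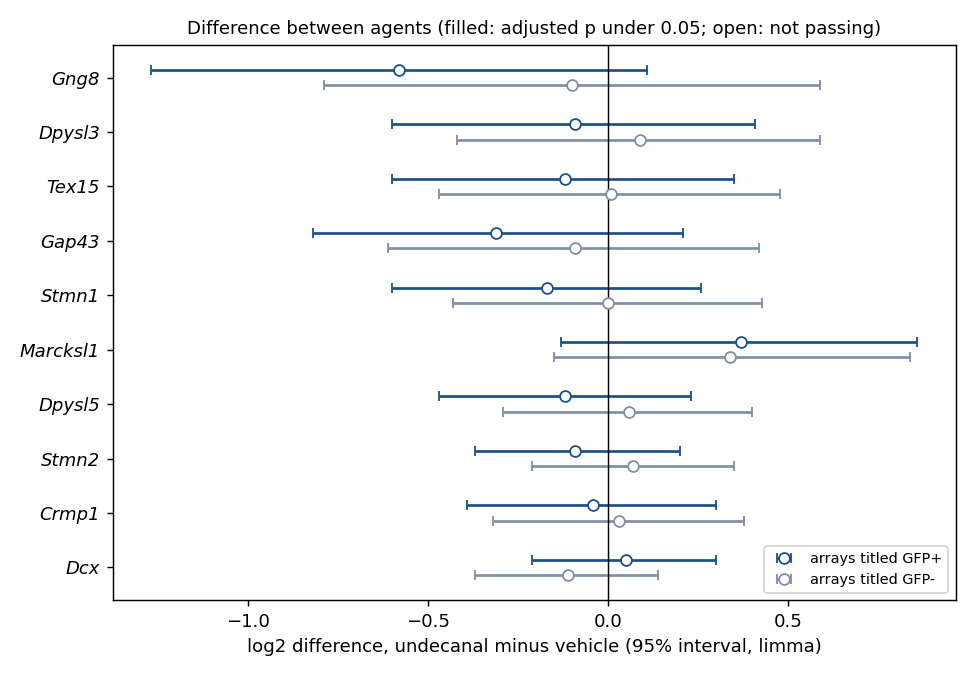
Difference between agents, undecanal minus vehicle, on the log2 scale (x axis) for each gene (y axis), with limma 95% intervals, in arrays titled GFP+ and titled GFP-. All points are open, since none passed, and every interval includes 0; the widest are those of Gng8.

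The interaction asks whether the difference between fractions changed with undecanal. Here too 0 of 10 genes passed in limma, as did 0% of all probe sets, and 0 of 10 had an unadjusted p under 0.05, against 2.63%. The values were negative for 8 of 10 genes, with a median of -0.16 beside 0.01 over all probe sets. They ran from -0.48 for Gng8 (SE 0.461, interval -1.45 to 0.49) to 0.16 for Dcx (SE 0.173, interval -0.20 to 0.52). No interval left out 0.

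Within groups, the genes moved together only in part. After group means were removed, the 45 pairs of genes had a median Pearson r of 0.16 over 16 arrays, 30 of them positive and 4 above 0.5, which describes arrays of pools whose fractions share mice. The highest was that of Dpysl3 with Dcx (0.81), with 0.82 in the 8 arrays titled GFP+ and 0.82 in the 8 titled GFP-, though their group means differed so unequally between fractions. In each fraction 1 array held the highest values of both genes. These were undecanal pool 2 titled GFP+ (12.45 and 13.19) and vehicle pool 2 titled GFP- (8.41 and 13.42), and r without them was not computed. Dpysl5 with Crmp1 had the next highest r (0.63, and 0.60 and 0.68 by fraction). Gng8 with Dpysl3 reached 0.54 over all 16 arrays, but 0.90 in arrays titled GFP+ and 0.06 in arrays titled GFP-, where Gng8 is low. The lowest was Dpysl5 with Stmn1 (-0.52). In the array of undecanal pool 2 titled GFP+, 9 of the 10 genes lay above their group mean, by 0.31 on average. In vehicle pool 1 titled GFP+ only 1 gene did, and the average was -0.11.

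**Figure D4:**
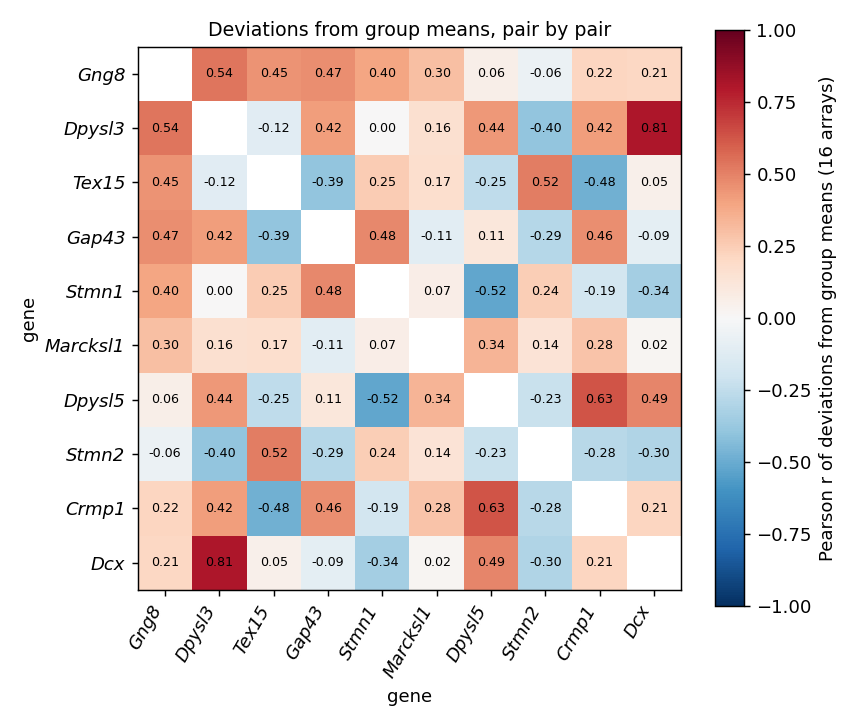
Pearson r between genes (both axes) of the deviations from group means over 16 arrays; red is positive and blue negative. Dpysl3 with Dcx is the highest at 0.81, and Dpysl5 with Stmn1 the lowest at -0.52.

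Other members of the same gene families were mixed. Of 21 related genes, 6 were called higher in vehicle arrays titled GFP+, 2 lower and 13 did not pass, with a median of 0.23. Gng2 (3.02) and Gng12 (1.43), G protein gamma subunits, Marcks (2.11), which resembles Marcksl1, and Gng3 (0.98), a neuronal gamma subunit, led the higher ones. The Gng3 call was lost without both pools numbered 2. Lower were Gprin1 (-0.71), a neurite outgrowth gene, and Dclk3 (-0.61), a doublecortin-like kinase. Each of those calls was lost in 7 of 20 alternatives, among them mature neuron centring and leaving out vehicle pool 2 or 4, and for Dclk3 also pool 1 (limma adjusted p up to 0.229 for Gprin1 and 0.29 for Dclk3). Dpysl2 (-0.14, SE 0.132), Stmn3 (-0.11, SE 0.158) and Gng13 (-0.20, SE 0.158), the gamma subunit of mature olfactory cilia, did not pass. In undecanal pools 6 were called higher and 0 lower. Lower calls appeared there in 8 of 20 alternatives, up to 7, and were 2 with the pool as a replicate block. Lower calls of this list in vehicle pools were 6 with median centring and 0 with mature neuron centring. Of all 22206 probe sets, 11231 and 443 were called lower there.

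A broader list held 28 other neurite growth genes. In vehicle pools 7 of them were called higher and 2 lower, with a median of -0.05, and in undecanal pools 7 and 0. Lower calls appeared in undecanal pools in 9 of 20 alternatives, up to 15, and were 2 with the replicate block. The higher ones included Ablim1, an actin-binding protein below background in arrays titled GFP- (at least 5.12-fold higher), the tubulins Tubb2b (2.46) and Tubb2a (1.45), and Tmsb10 (1.78), which binds actin monomers. Lower were Map1a (-0.76), a microtubule protein of mature neurons, and Fez1 (-0.62), an axonal transport adaptor, whose calls were lost without both pools numbered 3 and, for Fez1, with mature neuron centring, without vehicle pool 1 or 2 and without both pools numbered 1 or 2. Leaving out vehicle pool 2 also changed the counts of this list, to 4 higher and 1 lower. Tubb3 (0.11, SE 0.147), a neuronal tubulin, and Map1b (-0.21, SE 0.121), a microtubule protein of growing axons, did not pass. With median centring the higher calls of this list fell to 4 and the lower ones rose to 13 in vehicle pools, and with mature neuron centring they were 10 and 1. Over all 22206 probe sets, higher and lower calls were 1570 and 11231 with median centring and 3173 and 443 with mature neuron centring.

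**Figure D5:**
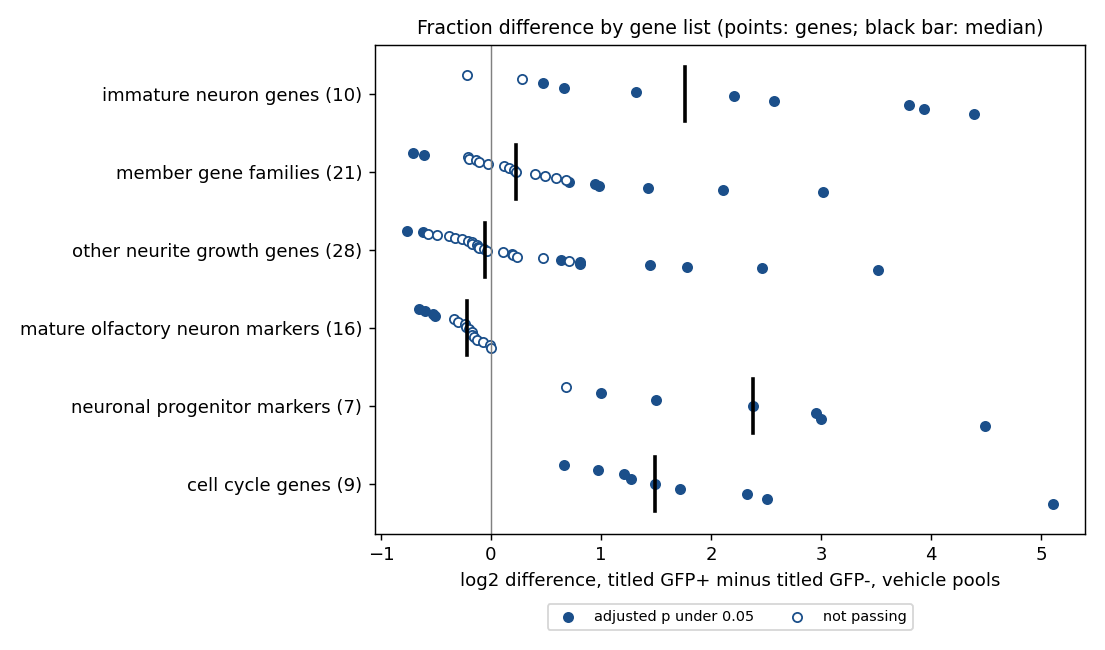
Difference between fractions in vehicle pools on the log2 scale (x axis) for the genes of 6 lists (y axis, number measured in brackets); filled points passed at an adjusted p under 0.05 and black bars are medians. The immature neuron genes reach from -0.22 to 4.39 with a median of 1.77, between the cell cycle genes (1.49) and the progenitor markers (2.38), while mature neuron markers lie at or below 0.

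Markers of other cell types moved with the fractions as well, and in pooled RNA fewer cells of a type and less RNA per cell cannot be told apart. Of the 7 measured neuronal progenitor markers 6 were called higher in vehicle arrays titled GFP+, led by Nhlh1 (4.49) and Sox11 (3.00), and all 9 measured cell cycle genes, led by Mki67 (5.11) and by Bub1, which was below background in arrays titled GFP- (at least 2.44-fold higher). In undecanal pools 7 of 7 and 9 of 9 were. The mean log2 level of the progenitor list was 5.17 to 5.49 in vehicle arrays titled GFP- and 7.39 to 7.94 in those titled GFP+, and 5.17 to 5.39 and 7.22 to 7.85 with undecanal. For the cell cycle list it was 5.46 to 5.61 against 7.17 to 7.89, and with undecanal 5.42 to 5.68 against 7.00 to 8.15. All 12 immune markers were higher, led by Lcn2 (11.31) and Ngp (10.86), and their mean was 4.58 to 5.06 in arrays titled GFP- against 11.32 to 12.16 with vehicle, and 4.55 to 5.04 against 11.01 to 12.35 with undecanal. The 6 microvillar cell markers were all higher (Foxi1 4.11, Cftr 3.61), with means of 4.29 to 4.58 against 6.65 to 7.78 in vehicle and 4.52 to 5.11 against 7.30 to 7.81 in undecanal pools, and 4 of 6 sustentacular cell markers were (Cyp1a2 2.72, Sult1c1 2.52), with means of 8.67 to 10.40 against 10.98 to 11.99 and 9.50 to 10.30 against 11.24 to 12.15.

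Mature neuron markers differed little: 4 of 16 were called lower in vehicle arrays titled GFP+, among them Pde1c (-0.65) and Slc24a4 (-0.60), and 0 higher, and in undecanal pools 3 were called lower and 0 higher. Both calls were lost when arrays were centred on this list, a centring that removes the mean difference of the list by construction. That of Slc24a4 in vehicle pools was also lost without vehicle pool 1 and without both pools numbered 1 or 2. In undecanal pools the call of Pde1c was lost in 6 of 20 alternatives and that of Slc24a4 in 13. The count of lower calls there fell to 1 or 0 in 9 of 20. Median centring gave 16 of 16 lower, where it called 11231 of all 22206 probe sets lower in vehicle and 11129 in undecanal pools. The list mean was 16.01 to 16.12 in vehicle arrays titled GFP- and 15.75 to 15.81 in those titled GFP+, and 15.93 to 16.16 and 15.72 to 15.88 with undecanal. Of the 5 horizontal basal cell markers 0 passed and all group means lay below background, Krt5, Krt14 and Trp63 included, with list means from 3.57 to 4.01 over the 16 arrays. Of 5 ensheathing glia markers 0 passed, with Sox10 below background in all 4 groups and list means from 4.06 to 4.80, and of 4 stromal and vascular markers 1 was higher with vehicle, Dcn (1.26), a call lost without both pools numbered 1 or 4, with list means from 4.40 to 5.30. In undecanal pools 2 of the 4 were higher, Dcn (1.03) and Pecam1, which is below background in arrays titled GFP- and is named after its values were seen, and that count was smaller in 10 of 20 alternatives. Marcksl1, Stmn1 and several gamma subunits are also transcribed outside neurons, and the part of immune, dividing and other cells in the members' differences was not tested.

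The probe sets most like the members in pattern were sought among named genes outside all lists, so listed growth genes could not appear. The ranking below covers only those genes. The mean of the 10 genes, each centred and scaled over the 16 arrays, correlated most with the odorant receptors Olfr1446 (Pearson r 0.981), Olfr1213 (0.978), Olfr237 (0.978), Olfr390 (0.976) and Olfr677 (0.976), with Ifitm2 (0.977), an interferon-induced membrane gene, Atp8b4 (0.977), a phospholipid flippase gene, and Plaur (0.976), the urokinase receptor. Their differences between fractions in vehicle pools ran from 3.68 (Atp8b4) to 8.29 (Olfr1213), with Plaur below background in arrays titled GFP- (at least 17.1-fold higher). The 16 arrays share the step between fractions, which every one of these genes shows. Each of the 10 genes is part of that mean, so their own r values, from -0.437 for Dcx to 0.984 for Dpysl3, are not comparable with those of the other genes.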

How the data were processed

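The authors deposited 28846 rows of log2 probe set values on 16 arrays. Per the submitters' processing notes, Affymetrix Expression Console was used. Its algorithm and scaling are not given in the sources, and the log2 scale was read from the values (1.67 to 19.71). After 6640 control rows were left out, 22206 probe sets were tested, 19572 of them with a gene symbol from the platform annotation. Arrays are not read counts, so no depth applies.

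Groups followed the titles. With 4 group means as the model, all arrays and probe sets were fitted in limma 3.58.1 (lmFit, eBayes) in R 4.3.3, and the Benjamini-Hochberg adjustment covered all 22206 probe sets, at a threshold of 0.05. Intervals are limma's 95% intervals. The fit was tested on simulated data with independent arrays, which cannot check the sharing of mice between fractions or the scaling. 

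The 10 genes and all lists were chosen with earlier results of these data known, so they are no independent evidence. Named besides them by rule are up to 4 passing genes per direction of each related list and 2 of each marker list. The 8 most similar genes outside all lists are named too. Genes given as not passing were picked as familiar examples after their values were seen. 2 progenitor, 1 cell cycle and 2 glia genes of the lists are not analysed here.

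The 24 mice make 8 pools of 3, so the 2 arrays of an agent and number hold the same mice. Their deviations from group means correlated with r from 0.0502 to 0.271. The pool as a replicate block, other scalings, filters, weights and left-out pools were alternatives.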

Additional observations from a re-analysis of the deposited data

Results flagged for a closer look

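In 5 of 48 groups of 4 arrays, over the 10 genes, S100a5 and Omp, the highest or lowest array had a gap to the nearest other, relative to the range, larger than Dixon's 95% critical value. Chance gives about 1 in 20 groups, and the cause was not tested. Gng8 was 6.92 in vehicle pool 1 titled GFP-, where the others were 5.85 to 5.94. Without that pool the vehicle difference of Gng8 was 4.77. Dpysl3 was 12.45 in undecanal pool 2 titled GFP+, above 11.35 to 11.52. Vehicle pool 2 held the other 3: Stmn2 at 15.04 and Omp at 18.71 in the array titled GFP-, both the lowest of their group, and Crmp1 at 13.67 in the array titled GFP+, the highest by a small amount.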

How the results depend on the processing

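Gap43, Gng8, Dpysl3, Tex15, Marcksl1 and Stmn1 kept their direction and passed between fractions under all 20 alternatives, in vehicle and in undecanal pools. The number of the 10 genes called higher ran from 6 to 9 in vehicle pools and from 6 to 8 in undecanal pools. With arrays centred on their median, 1 gene, Dcx, was called lower in vehicle and 1 in undecanal pools. Of all 22206 probe sets, 11231 and 11129 were called lower with it. That centring moved the median difference of all probe sets from -0.11 to -0.47 in vehicle pools, and centring on mature neuron markers moved it to 0.16. Crmp1 passed as higher in vehicle pools with mature neuron centring alone. With the pool as a replicate block, 8 genes were called in vehicle and 7 in undecanal pools, and no member's call changed other than that of Dpysl5. Undecanal effects and the interaction called 0 of the 10 genes under every alternative. Of 990 values of single members under the alternatives 0 changed sign where either fit passed, and 57 changed sign with neither passing.

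The median correlation of deviations was 0.05 with median centring, against 0.16, and the cause was not tested. The background level was 8.70 when taken from negative control rows. Against that level, the means titled GFP- of Gap43, Gng8, Dpysl3, Tex15 and Marcksl1 are below background. The vehicle differences of Gap43, Gng8, Dpysl3 and Tex15 become at least 2.96-fold, 3.56-fold, 8.44-fold and 1.23-fold. Marcksl1 has no fold, since its means titled GFP+, 5.69 with vehicle and 6.05 with undecanal, lie below that level too. The choice among several probe sets had no effect, since each member has 1.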
